A study of Rattus norvegicus with 4 samples.

Results

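Eicosanoids are short-lived lipid mediators made from arachidonic acid, and macrophages are among their main sources in the lung. A cytosolic phospholipase frees arachidonic acid from membranes. Cyclooxygenases then turn it into an unstable endoperoxide that terminal synthases convert to prostaglandins and thromboxane, while 5-lipoxygenase, helped by a small membrane protein, turns it into leukotriene A4, the precursor of leukotriene B4 and of the cysteinyl leukotrienes. The set described here holds 10 rat genes of this pathway, chosen by name and matched to array probes through RefSeq accessions. They are 10 of 16579 genes that had a symbol and a value. One codes for the enzyme of substrate release (Pla2g4a), 5 belong to the cyclooxygenase branch (Ptgs1, Ptgs2, Ptges, Hpgds and Tbxas1) and 4 to the lipoxygenase branch (Alox5, Alox5ap, Lta4h and Ltc4s). All 10 had a probe, 13 probes in all.

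RNA came from NR8383, a macrophage line derived from lung lavage of a normal rat and grown partly adherent and partly floating. The description given with the samples places the cells at 20 passages. Each of 4 cultures (replicates 1 to 4, biological replicates in the series' design text) had been exposed for 4 h to NRCWE001, a titanium dioxide material, at 3 cm2 of particle surface per cm2, and was measured on its own one-colour array. Cells without particles were not analysed here, and the values therefore carry no information on a response to the particles. What could be compared was each probe with background, as judged by the flags that came with the data, and the 4 exposed cultures with each other.

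Each array carried 45598 distinct probes beside its controls, and between 15314 and 16708 of these passed the flag for a signal well above background. No spot reached saturation. The number of arrays limits the precision. Macrophage markers were well above background on all 4 arrays in 10 of 15 cases. Over all genes the share was 45.7%, which also stands beside the marker counts below. Cd68, a lysosomal glycoprotein, lay at 4.62 ± 0.14 (SD, n = 4). This and every level below is the log2 signal of a gene's brightest probe relative to the 75th percentile of its array. The macrophage marker Mertk passed the flag on 3 arrays, and Marco, Adgre1, Cd163 and Cd74 passed it on no array. Levels of different probes depend on the probe as well as on the RNA, so the genes are not ranked by them. Other cells known for eicosanoid enzymes were checked by their markers. Of 11 mast cell and basophil markers, 0 were detected on all 4 arrays and 1, the histidine decarboxylase gene Hdc, on 3 of them. Cpa3, Kit, Fcer1a and Ms4a2, which define mast cells, passed that flag on no array. Of 8 platelet markers 2 were detected, the glycoprotein gene Gp9 at -2.22 ± 0.21 and the integrin gene Itgb3 at -3.02 ± 0.25. The platelet chemokine genes Pf4 and Ppbp were well above background on no array. Under a more lenient flag (positive and significant) Pf4 passed on all 4 arrays and Ppbp on none. Gata2, Prg2 and Sftpc, of the mast cell, granulocyte and epithelial lists, also passed it on all 4, as did 55.3% of all genes. Of 9 granulocyte markers 1 was detected, the cathelicidin gene Camp (2.11 ± 0.19), and of 11 lung epithelial markers 1, the ciliated cell factor Foxj1 (-2.87 ± 0.35). Sftpa1 and Krt18 passed on 1 array each. Both were highest on replicate 4, at -3.62 and -3.96, and at -5.74 or lower on the other arrays. The part of these markers in the results below was not tested.

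The pathway was present in part. Of the 10 genes, 5 were well above background on all 4 arrays, 1 on some of them and 4 on none. The 5 were Pla2g4a, Ptgs1, Tbxas1, Alox5 and Lta4h. Of all 16579 genes, 45.7% were detected on all 4 arrays, so the share among the 10 lay near that of all genes. The cyclooxygenase branch had 2 of 5 genes detected and the lipoxygenase branch 2 of 4, with Alox5ap detected on some arrays only. With so few genes in each branch these counts do not set the branches apart. Each branch held genes with strong signals and genes at background. In bulk RNA a transcript in fewer cells and a lower amount per cell cannot be told apart.

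**Figure D1:**
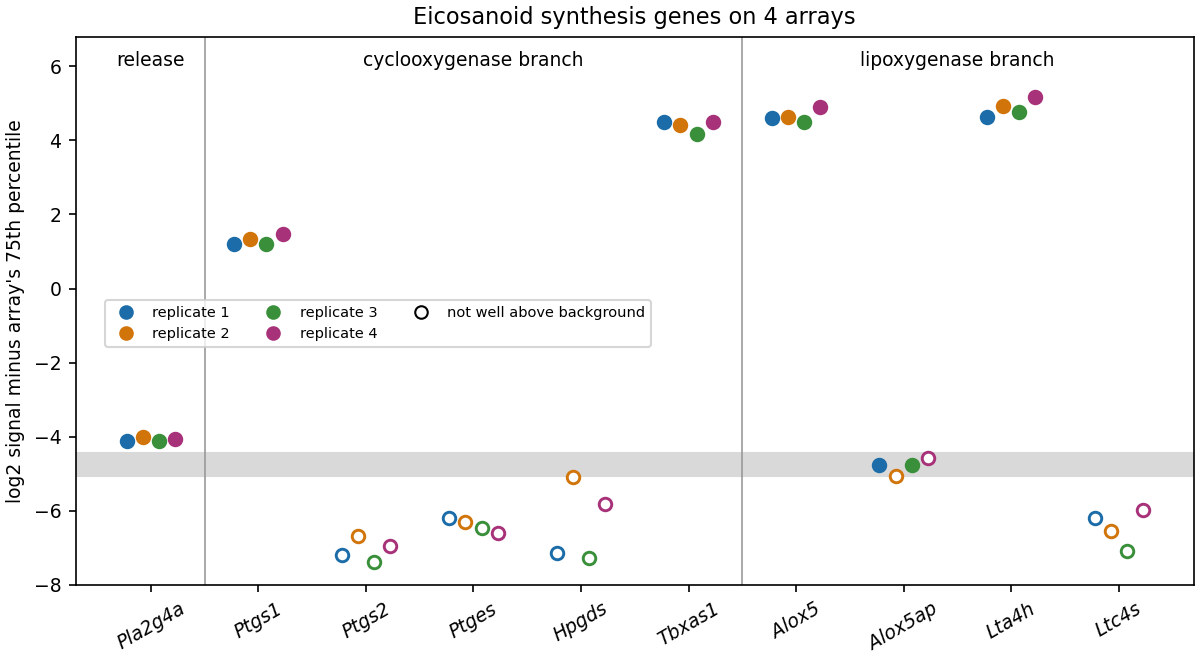
Level of each eicosanoid synthesis gene (log2 signal minus the 75th percentile of the array, vertical axis) on the 4 arrays, filled where its probe was well above background and open where it was not. The grey band spans the lowest level at which any probe passed the flag, from -5.06 on replicate 3 to -4.45 on replicate 2. Ptgs1, Tbxas1, Alox5 and Lta4h lie far above the band, Pla2g4a just above it, Alox5ap within it, and the open points of the other genes below it.

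Pla2g4a codes for cytosolic phospholipase A2 alpha, which cuts arachidonic acid from membrane phospholipids when calcium rises. Its transcript was dim but detected in every culture. The processed signal (background-subtracted intensity units) on replicates 1 to 4 was 24.9, 21.6, 31.9 and 24.6. The lowest signal that passed the flag on these arrays ran from 13.5 to 16.6. After scaling the 4 values were -4.12, -4.01, -4.12 and -4.07, with replicate 2 the highest and replicates 1 and 3 the lowest (-4.08 ± 0.05, SD, n = 4). This SD depends on the processing, being 0.16 with normexp background correction and 0.11 from the spots beyond column 72. Its margin over the lowest passing level was 0.45 to 0.94 on the log2 scale, depending on the array.

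Ptgs1 and Ptgs2 code for cyclooxygenase-1 and cyclooxygenase-2, isozymes that catalyse the same reaction. The first is present in many cells at rest, and the second is known as the form that macrophages induce when activated. These arrays detected the first and not the second. The brighter Ptgs1 probe gave processed signals of 999, 874, 1287 and 1140 intensity units on replicates 1 to 4. On the scaled log2 axis it lay at 1.21, 1.33, 1.21 and 1.46 (1.30 ± 0.12, SD, n = 4), with replicate 4 the highest and replicates 1 and 3 the lowest. Without replicate 4 the level was 1.25 ± 0.07. The probe was printed on 2 spots, whose log2 levels on 1 array differed by at most 0.07, less than the 0.26 between the highest and lowest array. A second probe with the same accession was close to background. It gave signals of 29.5, 9.67, 23.2 and 21.7 units, and was not well above background on replicate 2. Ptgs1 was the member lost when every probe of a gene had to pass on all 4 arrays (4 of 10 detected, against 40.4% of all genes).

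The Ptgs2 probe gave processed signals of 2.93, 3.38, 3.30 and 3.32 units, at or close to the lowest signal found on each array (2.68 to 3.28). Its spots read 53.0, 47.0, 51.5 and 50.0 units before background subtraction, over local backgrounds of 37 to 40 units. It failed the stricter flag (well above background) and the more lenient one (positive and significant) on all 4 arrays. Of all genes, 20.4% failed the lenient flag on every array. Values at this floor have no order, so nothing can be said of differences between cultures. With 1 probe for Ptgs2, a transcript that the probe does not match would also go unseen.

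The bases before the RefSeq start of both genes are shown because 1 of this isozyme pair was detected and the other was not. Each window is 250 bases long, 5′ to 3′ on the gene's strand, ends just before the annotated start and comes from RefSeq on build GRCr8. The Ptgs1 window is chr3:39981169-39981418 (plus strand) and the Ptgs2 window chr13:64713813-64714062 (plus strand). Capitals mark matches, on either strand, to any of 7 motifs. The TATA box was searched as TATAAA and the GC box, a site of SP1-type factors, as GGGCGG. A partial cyclic AMP response element was searched as TGACG. The E box was taken in its palindromic form, CACGTG. The AP-1 motif, which Fos and Jun proteins bind, was TGANTCA. A loose form of the C/EBP motif was TTGCNNAA. The kappaB motif was also searched in a loose form, GGGNNNNNCC.
Ptgs1: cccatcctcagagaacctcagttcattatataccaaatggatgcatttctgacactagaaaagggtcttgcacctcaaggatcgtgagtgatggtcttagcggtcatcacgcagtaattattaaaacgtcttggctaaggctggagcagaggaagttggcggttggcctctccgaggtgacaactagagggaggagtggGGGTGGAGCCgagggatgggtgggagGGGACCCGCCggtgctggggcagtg
Ptgs2: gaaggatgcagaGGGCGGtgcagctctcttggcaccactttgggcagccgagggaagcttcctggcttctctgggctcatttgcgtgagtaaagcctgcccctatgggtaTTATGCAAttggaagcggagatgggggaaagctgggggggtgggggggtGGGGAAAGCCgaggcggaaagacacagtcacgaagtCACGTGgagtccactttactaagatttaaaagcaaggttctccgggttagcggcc
The Ptgs1 window held 2 kappaB-type matches, at -51 and -25 from the start, and none of the other motifs. The Ptgs2 window held a GC box at -238, a C/EBP match at -140, a kappaB-type match at -91 and an E box at -55. Such matches are common or rare by letters alone. Among 33469 windows of the same length, 42.3% held the kappaB-type motif, 30.5% the GC box, 9.22% the C/EBP motif and 5.59% the E box. A match describes the sequence and does not show binding, and a motif without a match says nothing of its factor.

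Downstream of the cyclooxygenases, Tbxas1, the thromboxane synthase gene, was strongly detected. Its brighter probe gave 9844, 7364, 9948 and 9334 units on replicates 1 to 4. The scaled levels were 4.51, 4.41, 4.17 and 4.49, with replicate 3 the lowest and the others within 0.10 of each other (4.39 ± 0.16, SD, n = 4). Without replicate 3 the level was 4.47 ± 0.05. This order depends on the processing. With normexp background correction Tbxas1 deviated from its mean by -0.08, 0, -0.10 and 0.18 on replicates 1 to 4. Replicate 3 then lay close to replicate 1. A second Tbxas1 probe was also well above background everywhere, at 0.75, 0.91, 0.79 and 0.91. On that probe replicate 1 was the lowest and replicate 3 the next, so the 2 probes did not place the cultures in the same order.

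The other 2 synthases of this branch were not detected. Ptges codes for the inducible microsomal prostaglandin E synthase, which often works with cyclooxygenase-2. It gave 5.91, 4.37, 6.24 and 4.27 units, and passed the lenient flag on replicates 2, 3 and 4. Hpgds, the haematopoietic prostaglandin D synthase known from mast cells and antigen-presenting cells, has 2 probes. One stayed between 3.29 and 3.84 units and failed both flags on all arrays. The other gave 3.07, 10.1, 3.54 and 7.32 units and passed the lenient flag on replicates 2 and 4, the 2 higher values. No array had either probe well above background. Any link between Hpgds and the mast cell markers given above was not tested.

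**Figure D2:**
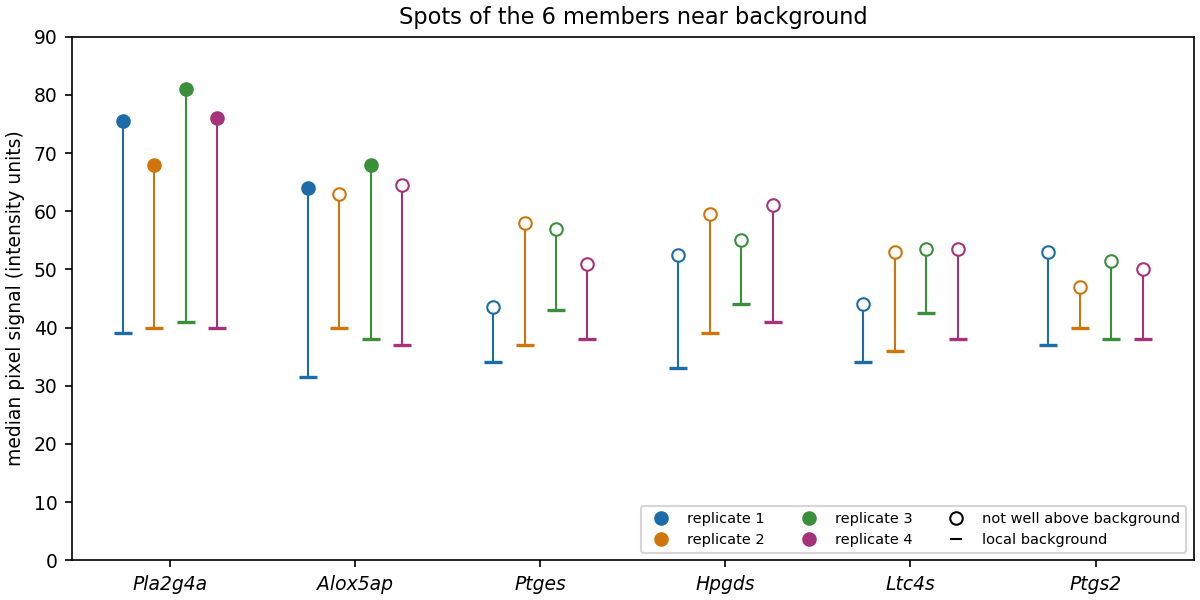
Median pixel signal of the spot (circle) and of its local background (dash), in intensity units before subtraction, for the 6 members near background on the 4 arrays, with filled circles where the probe was well above background. The Pla2g4a spots read 68.0 to 81.0 units and pass on every array, Alox5ap reads 63.0 to 68.0 and passes on replicates 1 and 3, and Ptges, Hpgds, Ltc4s and Ptgs2 pass on none. The gap from circle to dash is not the processed signal. On replicate 1 the Ptgs2 spot read 53.0 over 37 and had a processed signal of 2.93 units.

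Alox5 codes for 5-lipoxygenase, the enzyme that opens the leukotriene branch and is found mainly in myeloid cells. It was strongly detected in all 4 cultures. Processed signals were 10478, 8542, 12597 and 12262 units on replicates 1 to 4. Scaled levels were 4.60, 4.62, 4.51 and 4.89, so replicate 4 stood above the other arrays, which lay within 0.11 of each other (4.65 ± 0.16, SD, n = 4). Its 2 spots differed by 0.01 to 0.07 on 1 array. Without replicate 4 the level was 4.58 ± 0.06. The 250 bases before its start, chr4:151251127-151251376 (minus strand) on GRCr8, are shown as the promoter of the detected enzyme at the head of this branch, with capitals as above.
Alox5: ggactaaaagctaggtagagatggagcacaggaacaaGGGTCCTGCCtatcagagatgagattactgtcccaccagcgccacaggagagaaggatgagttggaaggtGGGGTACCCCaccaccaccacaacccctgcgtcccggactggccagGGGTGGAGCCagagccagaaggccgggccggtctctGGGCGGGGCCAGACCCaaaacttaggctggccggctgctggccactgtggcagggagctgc
The window was 62.8% G and C and held no TATA box. It had a GC box at -61 and 6 kappaB-type matches from -213 to -55, 2 of which share bases with the GC box.

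Alox5ap codes for the 5-lipoxygenase activating protein, which presents arachidonic acid to the enzyme in the nuclear membrane. Its transcript lay at the edge of detection. Signals were 15.8, 10.4, 20.2 and 17.4 units, and the probe was well above background on replicates 1 and 3 and not on replicates 2 and 4. The lenient flag was set on all 4 arrays. Scaled levels were -4.77, -5.06, -4.78 and -4.58, lowest on replicate 2. On replicate 4 the signal exceeded the lowest passing signal of that array (16.3 units) and still failed the flag. Detection here depends on the flag, since Alox5ap was the member gained when the lenient flag was used (6 of 10 detected, against 55.3% of all genes) or when 1 array sufficed (6 of 10, against 51.8%).

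Lta4h codes for leukotriene A4 hydrolase, which makes leukotriene B4 and is also an aminopeptidase found in many tissues. It was strongly detected, with signals of 10868, 10526, 15114 and 14786 units. Scaled levels were 4.62, 4.92, 4.77 and 5.16, with replicate 4 the highest and replicate 1 the lowest (4.87 ± 0.23, SD, n = 4). Without replicate 4 the level was 4.77 ± 0.15. This probe was printed on 10 spots spread over the array, so its position can be examined. On replicate 1 the 6 spots at columns 7 to 28 averaged 4.42 and the 4 spots at columns 62 to 128 averaged 4.92. The spot medians before processing lay further apart, at 5199 to 9229.5 units on the left and 13981.5 to 18025 on the right. On the other arrays the same 2 zones differed by far less, at 4.93 and 4.92 on replicate 2, 4.78 and 4.75 on replicate 3, then 5.15 and 5.18 on the last array. The spot at column 95 was marked as an outlier on replicates 2 to 4 and left out there, so their right-hand zone rests on 3 spots. On replicate 1 it was kept and, at 5.06, was the highest. The other right-hand spots of replicate 1 lay at 4.84 to 4.93, and those of replicate 3 at 4.70 to 4.80. From the right-hand zone alone the 4 arrays lay at 4.94 ± 0.17, and replicate 1 was no longer the lowest, which was replicate 3. Replicate 4 was the highest in both zones.

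**Figure D3:**
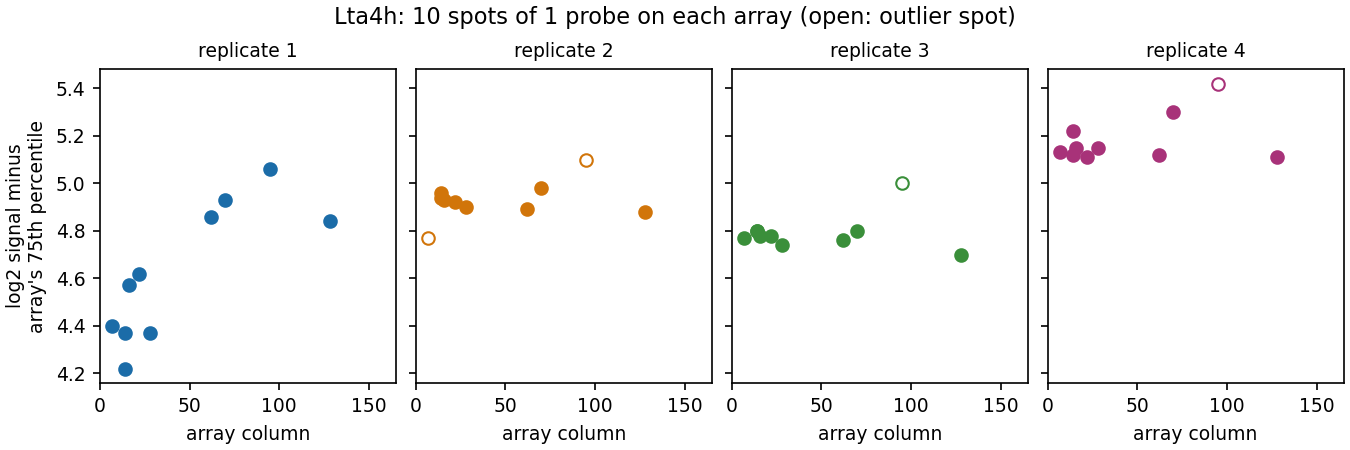
Level of each of the 10 Lta4h spots (log2 signal minus the 75th percentile of the array) against the column of the array in which the spot was printed, 1 panel per replicate, with open circles for spots marked as outliers and left out. On replicate 1 the spots at columns 7 to 28 lie between 4.22 and 4.62 and those further right between 4.84 and 5.06, while the filled points of each other replicate lie close to one level.

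Ltc4s, the leukotriene C4 synthase gene, was not detected. Its probe gave 5.87, 3.68, 4.11 and 6.55 units, and passed the lenient flag on replicate 4 alone. Mgst2, a related membrane enzyme that can also conjugate leukotriene A4 to glutathione, was well above background on all 4 arrays, at 3.79, 3.70, 3.70 and 3.82 (3.75 ± 0.06, SD, n = 4). The cultures differed little in it.

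The spread between the 4 exposed cultures was then tested for the 5 detected members. Each gene's variance over the arrays was set against the variance that limma's prior gives for genes of like level, and p-values were adjusted over all 7570 genes tested. As each culture had its own array, spread between cultures and between arrays comes together. Of the 5 members 0 were more variable than genes of their level at an adjusted p under 0.05 (limma prior variance), and 0 at an unadjusted p under 0.05. Over all genes the test called 0.515% adjusted and 6.67% unadjusted. The ratio of SD to prior SD ran from 0.17 for Pla2g4a (limma prior variance, adjusted p = 1) to 1.28 for Lta4h (limma, adjusted p = 0.991). The Lta4h ratio includes the left-hand spots of replicate 1. The median SD of the 5 was 0.158, beside 0.163 over all genes tested. These p-values do not show that the cultures were alike.

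Deviations from the mean of the arrays had 1 sign for all 5 detected members on replicates 3 and 4. On replicate 4 every one of them lay above its own mean, by 0.01 (Pla2g4a), 0.10 (Tbxas1), 0.16 (Ptgs1), 0.23 (Alox5) and 0.29 (Lta4h). The median of the members there was 0.16, beside 0.05 over all detected genes. On replicate 3 all 5 lay below their means, with a median of -0.10 beside -0.08 for all genes. The direction on replicate 4 was the same after quantile normalization, when arrays were scaled to the median detected probe, with normexp background correction and from spots beyond column 72, where the Tbxas1 value comes from its second, dimmer probe. With outlier spots kept, 4 of 5 lay above, Pla2g4a being at -0.01. On replicate 3, quantile normalization left 3 below and 2 above. The members share each array's scaling, so these are 4 arrays and not 5 independent sets.

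**Figure D4:**
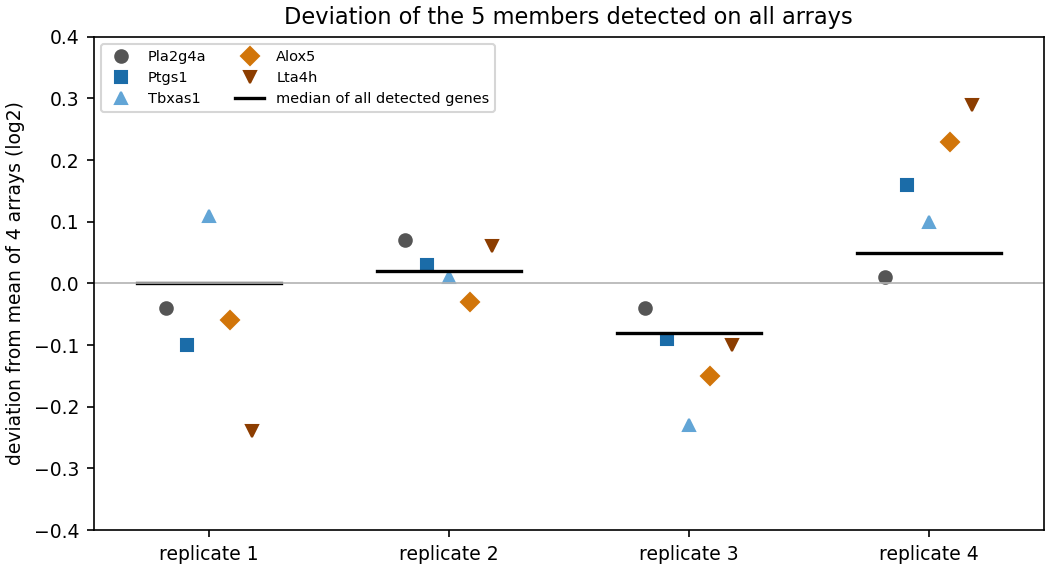
Deviation of each member detected on all arrays from its own mean over the 4 arrays (log2, vertical axis), by replicate, with a black bar for the median deviation of all detected genes. All 5 members lie above 0 on replicate 4, up to 0.29 for Lta4h, and all below 0 on replicate 3, down to -0.23 for Tbxas1, though with quantile normalization 2 members lie above 0 on replicate 3 and with outlier spots kept Pla2g4a lies below 0 on replicate 4.

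The wider pathway was described from 63 further genes, of which 62 were measured, all but the lipoxin receptor gene Fpr2. On all 4 arrays 29 of the 62 were detected (46.8%), beside 45.7% of all genes, on 1 to 3 arrays 4, and on none 29. The counts by role below cover 6 to 15 genes each and stand beside that same 45.7%. None of the 29 detected genes was called more variable between arrays (limma prior variance, adjusted). At an unadjusted p under 0.05 there was 1 of the 29, beside 6.67% of all genes tested. It was Acsl3, which activates fatty acids with coenzyme A (limma prior variance, adjusted p = 0.522), lowest on replicate 1.

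Genes grouped under release and re-esterification of arachidonic acid were detected in 8 of 13 cases, a count that includes the platelet-activating factor enzyme gene Pla2g7. Pla2g6, the calcium-independent phospholipase, lay at 0.45 ± 0.12 (SD, n = 4). Pla2g7, the secreted enzyme that breaks down platelet-activating factor, lay at 3.38 ± 0.14, and the lysosomal phospholipase gene Pla2g15 at 3.46 ± 0.15. Acsl4, whose product prefers arachidonic acid, was well above background on 3 arrays. The secreted phospholipase genes Pla2g2a, Pla2g5 and Pla2g10, named here after their values were seen, failed both flags on all arrays.

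Other prostanoid enzymes were detected in 5 of 7 cases. Ptges2 and Ptges3 code for the other prostaglandin E synthases, and lay at -0.73 ± 0.11 and 2.47 ± 0.25. Ptges3 is also the heat shock protein co-chaperone p23. Prxl2b, a prostaglandin F synthase gene, lay at -1.07 ± 0.19.

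Among 15 other genes grouped with the lipoxygenases and leukotriene enzymes 7 were detected, not all of them coding for such enzymes. Of the lipoxygenase genes in this group, Alox12b alone was well above background on any array. Alox12b, the epidermal 12R-lipoxygenase gene, was dim at -4.08 ± 0.36, Mgst2 lay at 3.75 ± 0.06 and its relative Mgst3 at 2.89 ± 0.16. Cotl1, an actin-binding protein that also binds 5-lipoxygenase, lay at 5.90 ± 0.14, and Dpep2, a dipeptidase gene of cysteinyl leukotriene conversion, at 0.61 ± 0.12. Alox15, the 12/15-lipoxygenase gene known from resident macrophages, failed both flags on all arrays. The remaining 2 detected genes code for epoxide hydrolases, Ephx1 at -1.16 ± 0.13 and Ephx2 at -2.03 ± 0.19. The last 5 genes were named after their values were seen.

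Breakdown and transport genes were detected in 5 of 12 cases. Ptgr1 and Ptgr2, prostaglandin reductase genes, lay at -0.81 ± 0.10 and -2.19 ± 0.20, and Cyp4f6, of the cytochrome family that hydroxylates leukotrienes, at -0.92 ± 0.23. The other detected genes, named after their values were seen, were the transporter genes Abcc1 (0.28 ± 0.02) and Abcc4 (0 ± 0.08). Abcc1 was no longer counted when every probe had to pass. The prostaglandin transporter gene Slco2a1 was well above background on 1 array.

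Receptor genes were counted by class. Prostanoid receptors were detected in 4 of 9 cases (44.4%), near the 45.7% of all genes. Among them were Ptger2 (-0.09 ± 0.21) and the prostacyclin receptor gene Ptgir (-1.47 ± 0.24). Ptgdr2, a prostaglandin D receptor gene, was dim and more spread at -3.92 ± 0.50, and Ptgdr passed on 3 arrays. The thromboxane receptor gene Tbxa2r lay at -3.16 ± 0.18 and was named after its values were seen. Of 6 measured receptors for leukotrienes and related lipids, 0 were detected on all 4 arrays, and Gpr17 passed on 2. Under the lenient flag Gpr17 passed on all 4, Ltb4r on 2, Cysltr1 on 1 and Cysltr2 on none. This difference between receptor classes was not tested.

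**Figure D5:**
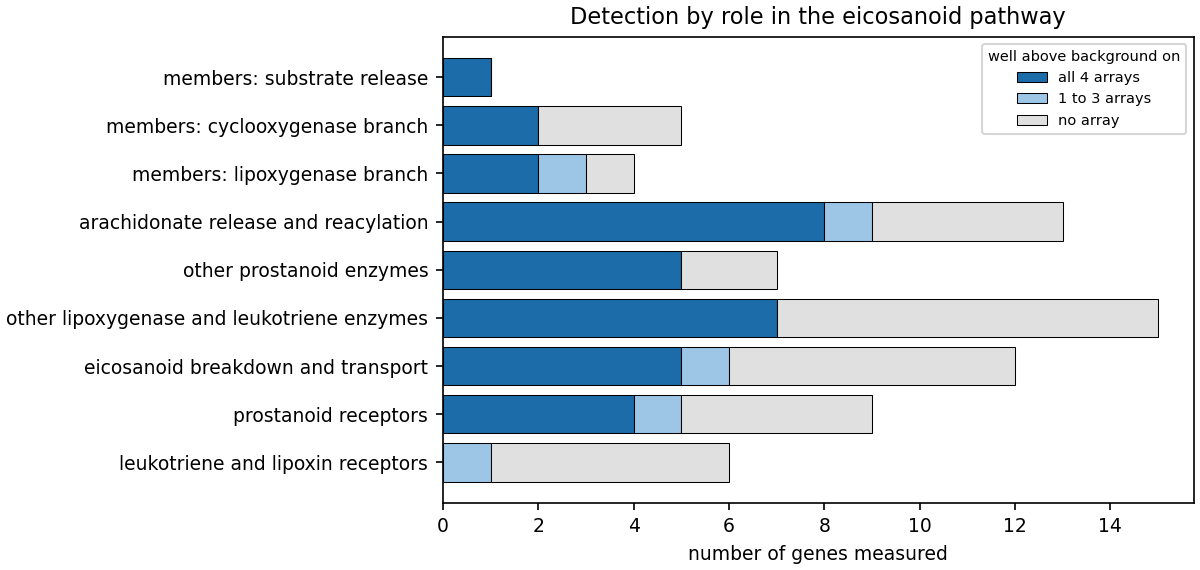
Number of genes measured in each role of the pathway (horizontal axis), split by whether the gene was well above background on all 4 arrays, on 1 to 3 arrays or on none; the top 3 bars are the 10 synthesis genes and the others the 62 further genes. The release and re-esterification group has 8 of 13 detected on all arrays. The group labelled leukotriene and lipoxin receptors has 0 of 6, and its lipoxin receptor gene, Fpr2, was listed but not measured.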

How the data were processed

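Per the file headers, the authors' deposited intensity is the processed signal of each spot, made by Agilent Feature Extraction (version 11.0.1.1, also in the submitters' processing notes). It had its background subtracted and was left unscaled across arrays. Spot and background medians and the flags come from the same files. The headers place the 4 arrays on 1 slide, which leaves no slide batch. Group and replicate came from the sample titles.

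Of 58717 non-control spots per array, 634 to 669 outlier spots were left out. Levels were log2 signal minus the array's 75th percentile, averaged over a probe's spots. Probes (21109 of 45598) were named by accession through the RefSeq gene table of GRCr8, and the array's grid uses an older build, so no probe coordinates are given. A gene was represented by its brightest probe, and detected on an array where any probe had the well-above-background flag on over 0.5 of its spots.

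Each gene's variance over 4 arrays was compared with limma's prior (version 3.58.1, R 4.3.3; trended and robust, 24.3 degrees of freedom; Benjamini-Hochberg adjustment, threshold 0.05), after tests on simulated data. With 1 group there was no contrast between treatments. Promoters were found for 8 of the 10 genes, with no entry for Hpgds and Alox5ap. The text gives all 10 members, the first 3 detected genes of each role in list order, and those on 1 to 3 arrays. Members and lists were chosen with earlier results of these data known.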

Additional observations from a re-analysis of the deposited data

How the results depend on the processing

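No paired analysis was possible because there was 1 group. The count of members detected on all 4 arrays was 5 without any one replicate, with the brightest probe only and with outlier spots kept, 6 with the lenient flag or when 1 array sufficed, and 4 when every probe of a gene had to pass, as for 40.4% of all genes. That last setting took the cyclooxygenase branch from 2 to 1 by losing Ptgs1, whose second probe failed on replicate 2. The lipoxygenase branch ran from 2 to 3 and the further pathway genes from 28 to 37, while the share of all genes ran from 40.4% to 55.3%. No member was called more variable in any of 14 alternatives, while the count over all genes, 39 as reported, ran from 0 (prior without trend) to 206 (normexp on spot medians). Levels moved by more than 1 SD in 14 of 50 recomputed values. Scaling to the median detected probe raised the median level of all genes by 0.56. Pla2g4a lay at -2.48 with normexp, and Tbxas1 at 2.62 over both probes. Spots beyond column 72, an alternative chosen after seeing the data, put Tbxas1 at 0.87, since its second probe alone lies there. Low signal over background limits Pla2g4a, Alox5ap and the 4 members that were not detected.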
